A study of Mus musculus with 12 samples.

Results

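The variable (V), diversity (D) and joining (J) segments of the mouse immunoglobulin heavy chain locus were followed in RNA from 12 pre-B cell lines. They were taken as all rows of the deposited gene table whose GENCODE M21 symbol starts with Ighv or Ighj, or with Ighd followed by a digit, which gave 209 of 51826 rows: 185 V, 20 D and 4 J segments. Of these, 25 had at least 10 counts in at least 3 lines and were tested (18 V, 4 D and 3 J), the others lay under that minimum, and 67 had no count in any line.

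The lines came from bone marrow of 2 C57BL/6 mice. Marrow cells of both mice were grown with interleukin 7 (IL7) for 7 days and then transduced with the retroviral vector pMIG, either empty (EV) or carrying BCR-ABL1, the fusion kinase of Philadelphia chromosome-positive leukemia. All lines were kept with IL7 for 48 h after transduction. The BCR-ABL1 lines then went without IL7 for 1 week until they were transformed, while the EV lines stayed in IL7 for a similar time and were sorted for GFP. There were 3 EV and 3 BCR-ABL1 lines per mouse, named by mouse and letter (EV 1A is an EV line of mouse 1). The kinase, the removal of IL7 and the outgrowth of transformed cells fell on all BCR-ABL1 lines and the sort on all EV lines, so their parts cannot be told apart.

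In developing B cells the RAG recombinase first joins a D to a J segment and then a V to the DJ joint. The joined exon is spliced to the constant exons of Ighm, so V, D and J segments found in RNA can reflect the rearrangements carried by the cells. All descendants of one rearranged cell carry the same rearrangements. The libraries were of total RNA, and how far D and J counts follow the segments that were joined was not tested. Unrearranged V segments can also be transcribed from their own promoters at low level, and D segments can be transcribed within DJ joints. V segments near D are used early, and the large Ighv1 and Ighv8 families at the far end need the locus to open and contract. In bulk RNA fewer cells with a segment and less RNA per cell cannot be told apart.

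All 209 segments lie on chromosome 12 of GRCm38, on the minus strand except 2. The J segments span chr12:113428514-113429833, the D segments chr12:113430528-113526809 and the V segments chr12:113572927-116010093. The D segments that carried the counts belong to the Ighd2 family. Their 17 bases are shown because the lines differed in which of them they held. Capitals mark the positions at which the 6 members are not all alike, and positions run 5′ to 3′ on the coding strand. The letters are those of the GENCODE M21 transcripts.
Ighd2-3 (chr12:113475400-113475416): TctaTGatGGtTacTac
Ighd2-4 (chr12:113470694-113470710): TctaCTatGAtTacGac
Ighd2-5 (chr12:113466027-113466043): CctaCTatAGtAacTac
Ighd2-6 (chr12:113461369-113461385): CctaCTatAGtAacTac
Ighd2-7 (chr12:113456720-113456736): TctaCTatGGtTacGac
Ighd2-8 (chr12:113450851-113450867): TctaCTatGGtAacTac
Ighd2-5 and Ighd2-6 are identical over these bases, so only reads that reach into flanking sequence can tell them apart. Ighd2-4 differed from Ighd2-7 at 1 base, Ighd2-3 from Ighd2-7 at 3 bases and Ighd2-8 from Ighd2-7 at 2 bases. A D segment is far shorter than a read, so its count rests on reads that overlap it and reach into its neighbours.

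The J segments are shown with TGGGG in capitals, which codes for the start of the conserved tryptophan-glycine motif.
Ighj1 (chr12:113429781-113429833): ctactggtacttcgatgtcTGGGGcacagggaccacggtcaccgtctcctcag
Ighj2 (chr12:113429468-113429515): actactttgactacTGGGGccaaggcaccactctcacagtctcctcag
Ighj3 (chr12:113429085-113429132): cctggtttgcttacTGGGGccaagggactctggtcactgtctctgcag
Ighj4 (chr12:113428514-113428567): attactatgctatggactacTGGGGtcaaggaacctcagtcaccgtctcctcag
The 3 V segments described one by one below, Ighv2-2, Ighv5-6 and Ighv14-2, are shown by the last 60 bases of their V exon, the end to which D is joined, with the codon of the conserved second cysteine (TGT) in capitals.
Ighv2-2 (chr12:113588267-113588326): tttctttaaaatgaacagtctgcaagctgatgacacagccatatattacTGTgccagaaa
Ighv5-6 (chr12:113625506-113625565): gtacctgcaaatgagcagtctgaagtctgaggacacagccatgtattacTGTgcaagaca
Ighv14-2 (chr12:113994469-113994528): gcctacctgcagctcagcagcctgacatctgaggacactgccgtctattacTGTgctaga
V segments of one family resemble each other closely. Over 115 V exons the best match of Ighv2-2 was Ighv2-4, with 98.0% identical bases. For Ighv5-6 it was Ighv5-4 with 95.4%, and for Ighv14-2 it was Ighv14-1 with 97.0%. How reads that match several segments were counted is not given in the sources used here, and values of close relatives are uncertain to that extent.

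Total counts per line ranged from 34791011 to 66011225. Levels are CPM, that is, counts scaled to equal library size with TMM factors, on which 3 counts in a line equal 0.0433 to 0.0910 CPM. Summed over 9 B lineage genes the level was 2767 to 5104 CPM in EV against 2777 to 3583 CPM in BCR-ABL1 lines, so both kinds of line carried the transcripts of their labelled cell type. EV line 2C stood apart from the other lines of its mouse and condition in the whole table, and EV line 2B stood apart in the heavy chain segments, as described below. The label calls the lines biological triplicates of each mouse, so p-values measure the spread between lines of 2 mice and not between many animals.

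EV lines of both mice were dominated by a single V segment, Ighv2-2. BCR-ABL1 lines held little of it and showed a low, broad set of V segments, mostly of the Ighv1 and Ighv8 families. Summed V segments reached 161 to 306 CPM in EV lines (mean 220 ± 50.4, SD, n = 6) and 10.5 to 20.5 CPM in BCR-ABL1 lines (15.8 ± 3.35, SD, n = 6). Without Ighv2-2 the order turned, with 5.15 ± 5.57 CPM in EV against 13.7 ± 3.90 CPM in BCR-ABL1 lines (SD, n = 6 each). Only EV line 2B, at 16.2 CPM, lay within the range of the BCR-ABL1 lines, which was 9.01 to 19.9 CPM, and without this line, a choice made after seeing the data, the EV mean was 2.93 ± 1.33 CPM (SD, n = 5). D segments summed to 0.569 to 2.99 CPM in EV against 2.40 to 4.12 CPM in BCR-ABL1 lines, and the J segments to 22.05 to 47.5 and 17.7 to 23.0 CPM. These sums are descriptions over segments and carry no test.

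**Figure D1:**
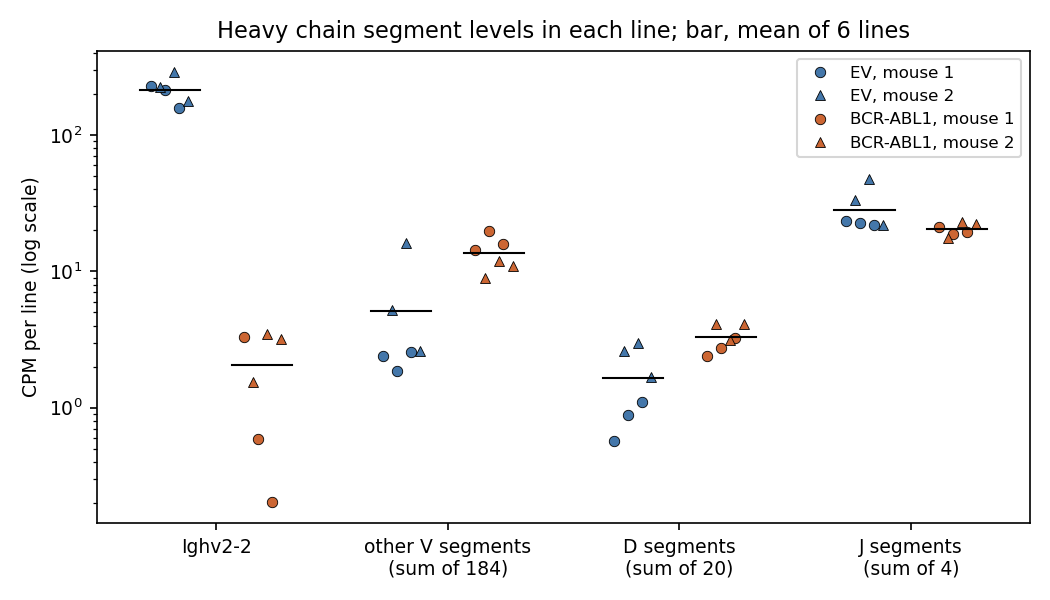
CPM (log scale) of Ighv2-2 and of the summed other V, D and J segments in each line; blue, EV, orange, BCR-ABL1, circles, mouse 1, triangles, mouse 2, bars, means of 6 lines. Ighv2-2 lay between 158 and 289 CPM in EV and between 0.204 and 3.50 CPM in BCR-ABL1 lines, and the J sums of the conditions overlapped.

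Relative to the constant gene Ighm, which encodes the mu chain, V segments were lower and J and D segments higher in BCR-ABL1 lines, each without overlap. For each 1000 CPM of Ighm, EV lines had 59.1 to 84.9 CPM of V segments and BCR-ABL1 lines 7.95 to 14.6 CPM. J segments had 8.09 to 13.2 CPM in EV against 13.3 to 18.4 CPM in BCR-ABL1 lines. D segments had 0.200 to 0.867 CPM per 1000 CPM of Ighm in EV and 1.67 to 3.35 in BCR-ABL1 lines. Ighm itself was lower in BCR-ABL1 lines, at 1231 to 1438 CPM against 2235 to 3599 CPM in EV lines. The J sum in plain CPM was not raised, with a mean of 20.5 in BCR-ABL1 and 28.4 in EV lines. These ratios are descriptions and were not tested.

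The first question was which segments differed between transformed and control pre-B cells. Genes were called when edgeR's quasi-likelihood glmTreat gave an FDR (the p adjusted after Benjamini and Hochberg over the 16407 genes tested) under 0.05 for a change beyond 1.5-fold. Of the 25 tested segments 17 were called higher in BCR-ABL1 lines (16 V and 1 D), against 6.49% of all tested genes, and 1 V segment was called lower, against 7.58%. The same 17 were higher in every BCR-ABL1 line than in every EV line, which held for 11.4% of tested genes, and the 1 was lower in every line, which held for 13.3%. These shares cannot be compared directly: 13 of the 25 segments reached 10 counts in no EV line, so they entered the test through the BCR-ABL1 lines and had to be higher there. Only 8 of the 25 reached 10 counts in at least 3 lines of each condition. The 7 that were not called were Ighv8-4, Ighd2-3, Ighd2-7, Ighd2-8, Ighj2, Ighj3 and Ighj4.

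Ighv2-2 (ENSMUSG00000096464, chr12:113588267-113588702) was the tested V segment nearest to D. It had 11993, 14838 and 10286 counts in EV lines 1A, 1B and 1C and 7377, 14502 and 9761 counts in EV lines 2A, 2B and 2C. In BCR-ABL1 lines it had 197, 28 and 9 counts for mouse 1 and 80, 231 and 155 counts for mouse 2. The lowest EV line thus exceeded the highest BCR-ABL1 line by far, and the BCR-ABL1 lines differed widely among themselves. Mean levels were 215 ± 45.7 CPM in EV against 2.06 ± 1.47 CPM in BCR-ABL1 lines (SD, n = 6), a log2 fold change of -6.69 (SE 0.66, glmTreat FDR = 1.66e-05). An exact two-sided permutation test of mean log2 CPM over all 924 labelings of the lines gave p = 0.00216, the smallest these can give (adjusted over 3 genes, 0.00216). Its closest relative, Ighv2-4, had at most 10 counts in any line.

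Within the V counts of a line, Ighv2-2 made up 94.7% to 99.1% in EV lines. The lowest share, in EV 2B, had a 95% Wilson interval of 94.32% to 95.03%, and the highest, in EV 1B, one of 98.98% to 99.28%. In BCR-ABL1 lines it made up 1.27% to 22.6% (median 16.7%) and still led in lines 1A, 2B and 2C. In the other BCR-ABL1 lines, 1B, 1C and 2A, Ighv8-6 led with 13.3%, 13.5% and 16.4%. Levels per kilobase of exon gave the same leading segment in every line, with Ighv2-2 at 450 to 822 CPM per kb in EV lines and the leading segment at 4.82 to 9.93 CPM per kb in BCR-ABL1 lines.

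The spread of V counts over segments was summarised as the effective number of segments (inverse Simpson number), which is 1 when one segment holds all counts. It was 1.02 to 1.11 in EV lines and 10.5 to 16.2 in BCR-ABL1 lines (mean 13.2 ± 2.40, SD, n = 6). By mouse the BCR-ABL1 values were 13.1 to 16.2 for mouse 1 and 10.5 to 13.3 for mouse 2. Between 4 and 6 V segments reached 10 counts in an EV line, and 14 to 20 did in a BCR-ABL1 line, although the EV lines held more V counts (7550 to 15316 against 550 to 1048). Without Ighv2-2 the effective number in EV lines varied from 2.12 in EV 2B to 24.1 in EV 2A, over 126 to 814 counts per line, and in BCR-ABL1 lines it was 13.4 to 16.1.

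Next to Ighv2-2, the V segments near D had few counts, with exceptions in single lines. Ighv5-6 (ENSMUSG00000094951), a V segment close to D, had 551 counts in EV 2B and 0 to 6 counts in each other line. There it made up 3.60% of V counts (95% Wilson interval 3.31% to 3.90%) and 67.7% of the V counts other than Ighv2-2, and set the high sum of that line. It lay under the count minimum and was not tested. Ighv5-2, the second V segment of EV 2C, had 21 counts there, 15 in EV 2A and at most 8 in each other line. BCR-ABL1 1A held 34 counts of Ighv5-17 and 27 of Ighv2-3, which had at most 7 counts in each other line. All V families other than Ighv1 and Ighv8, without Ighv2-2, hold 75 segments and summed to 0.303 to 12.8 CPM in EV against 1.36 to 3.54 CPM in BCR-ABL1 lines. Of these 75, 16 had a higher and 38 a lower mean in BCR-ABL1 lines, and 21 had no count.

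Ighv14-2 (ENSMUSG00000095583) was the tested V segment outside the Ighv1 and Ighv8 families apart from Ighv2-2. Its level was 0.114, 0.116 and 0.0924 CPM in EV lines of mouse 1 and 0.394, 0.579 and 0.145 CPM in those of mouse 2. In BCR-ABL1 lines it was 1.77, 2.19 and 1.86 CPM for mouse 1 and 0.882, 1.21 and 0.995 CPM for mouse 2. Every BCR-ABL1 line was above every EV line, but the order of the mice turned between the conditions. The EV levels rest on few counts, 6, 8 and 6 for mouse 1 and 13, 29 and 8 for mouse 2. The log2 fold change was 2.65 (SE 0.44, glmTreat FDR = 0.00409). It was 4.16 in mouse 1 alone (FDR = 3.7e-07) and 1.49 in mouse 2 alone (FDR = 0.219), and the interaction of mouse and condition was called (log2 difference -2.67, SE 0.55, quasi-likelihood FDR = 0.00717). Ighv14-2 was the 1 segment of 25 called for the interaction, whereas 16.1% of all tested genes were. Among EV lines Ighv14-2 reached 10 counts in 2A and 2B alone, while it did so in every BCR-ABL1 line. It thus entered the test through the group where it is high, and the FDRs of its rise are no independent support.

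The Ighv1 and Ighv8 families, in the part of the V region far from D, hold 109 of the 185 V segments. They summed to 1.32 to 3.49 CPM in EV lines (2.18 ± 0.805, SD, n = 6) but 7.65 to 17.1 CPM in BCR-ABL1 lines (11.4 ± 3.37, SD, n = 6), without overlap. Of the 109 segments 61 had a higher and 16 a lower mean in BCR-ABL1 lines, and 32 had no count. Of the 18 tested V segments 16 belong to these families. These levels were low: the highest tested member, Ighv8-6, reached 2.11 ± 0.340 CPM in BCR-ABL1 lines (SD, n = 6).

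Ighv8-6 had 16 to 59 counts in EV lines (median 39.5) and 90 to 136 counts in BCR-ABL1 lines (median 107.5), without overlap of the conditions in CPM. It was the second V segment of all 3 EV lines of mouse 1, and its log2 fold change was 1.71 (SE 0.25, glmTreat FDR = 0.00251). With the lines of mouse 2 alone it was 1.90 and not called (FDR = 0.0503). Ighv8-4, which lies nearer to D, was the tested member of these families that was not called. It had 0.680 ± 0.474 CPM in EV against 0.733 ± 0.352 CPM in BCR-ABL1 lines (SD, n = 6), with a log2 fold change of 0.10 (SE 0.43, glmTreat FDR = 1). Its highest level, 1.60 CPM, was in EV 2B.

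The 5 V segments with the largest fitted rise were near zero in EV lines, so their fold changes are given from pooled counts. Ighv1-52, Ighv1-69 and Ighv1-74 had no count in any of the 6 EV lines. Ighv1-52 had 13 to 32 counts per BCR-ABL1 line, Ighv1-69 had 5 to 27, and Ighv1-74, the tested V segment farthest from D, had 3 to 15. Set against a floor of 3 counts over the 6 EV lines together, BCR-ABL1 lines had at least 48.8-fold, 33.5-fold and 18.4-fold more of them. The exact lower 95% counting limits of these ratios, which also allow for the error of the BCR-ABL1 counts, were 39.2, 26.7 and 14.5. Ighv1-55 had 3 counts over all EV lines and 17 to 73 per BCR-ABL1 line, a pooled ratio of 76.5 (exact 95% counting interval 25.8 to 374). Ighv1-41, an annotated pseudogene, had 3 counts over the EV lines and 7 to 30 per BCR-ABL1 line, a ratio of 36.2 (12.1 to 178). The glmTreat FDR of these 5 lay between 0.00022 and 0.00451. All 5 reached 10 counts only in BCR-ABL1 lines, so they entered the test through the group where they are high. Their FDRs are therefore no independent support for a rise. Ighv1-74 was not called with line pair as replicate block (FDR = 0.0723), and with the lines of mouse 1 alone it fell under the count minimum.

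**Figure D2:**
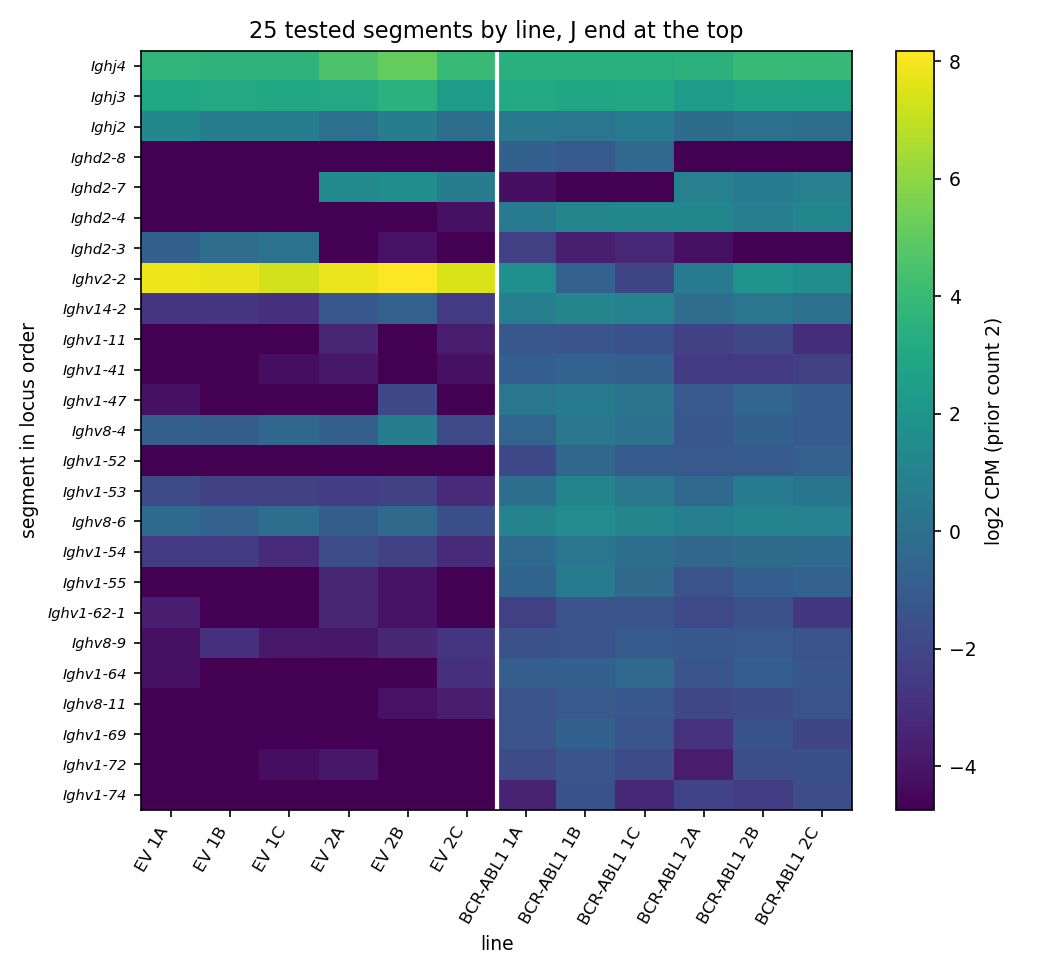
Log2 CPM (prior count 2) of the 25 tested segments in the 12 lines, in locus order with the J end at the top. Ighv2-2 is the brightest row of the EV lines, the Ighv1 rows are near the bottom of the scale there, and the Ighd2 rows change between mice.

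By position, the V segments of BCR-ABL1 lines did not spread evenly. Ighv2-2 was left out, and the V region was divided into windows of 250 kb from its D-proximal end. The 12 segments from Ighv1-50 to Ighv1-58, at 1500 to 1750 kb, summed to 4.26 to 8.61 CPM in BCR-ABL1 and 0.452 to 1.32 CPM in EV lines. The 22 segments of the window before it, at 1250 to 1500 kb, summed to 0.997 to 3.53 CPM in BCR-ABL1 and 0.289 to 1.90 CPM in EV lines. The 13 segments of the window after it summed to 1.48 to 2.46 CPM and 0.0770 to 0.303 CPM. At 500 to 750 kb the 19 segments from Ighv6-2 to Ighv3-8 had at most 0.186 CPM in a BCR-ABL1 and 0.303 CPM in an EV line. At the far end the 14 segments from Ighv1-75 to Ighv1-86 had at most 0.105 CPM and 0.121 CPM. In both of these windows the ranges of the conditions overlapped.

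**Figure D3:**
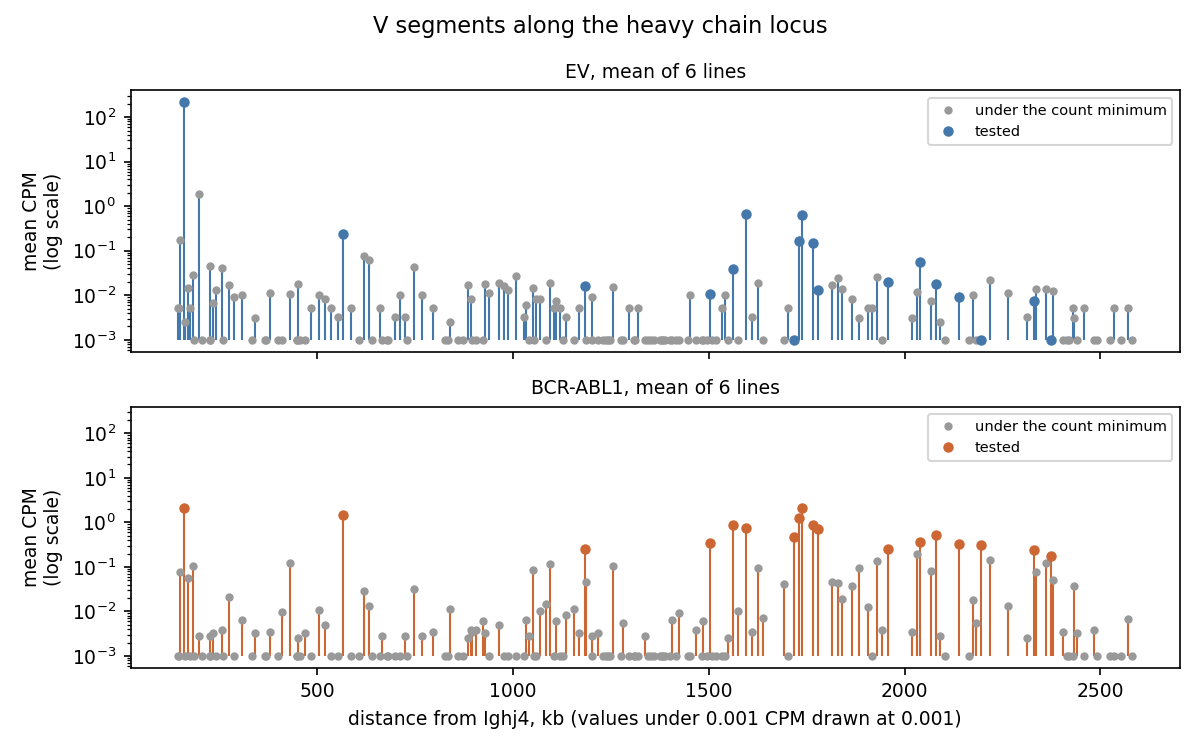
Mean CPM (log scale) of each V segment against its distance from Ighj4 in kb, in EV (top) and BCR-ABL1 lines (bottom); coloured points, tested segments, grey points, segments under the count minimum. In EV lines Ighv2-2 towers over all others, and in BCR-ABL1 lines most tested segments lie at 1500 kb or farther.

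The make-up of the V segments was also compared between pairs of lines, as the share of V counts that both lines held in common. Without Ighv2-2, BCR-ABL1 lines shared 81.1% to 87.0% within a mouse (6 pairs) and 72.5% to 83.5% between the mice (9 pairs). EV lines without Ighv2-2 shared 26.8% to 79.5% within a mouse and 22.9% to 44.6% between mice. These EV shares rest on 126 to 173 counts per line, or 814 in EV 2B, of which Ighv5-6 held 551. BCR-ABL1 lines had 470 to 949 such counts. Fewer counts lower shared shares through sampling, and the part of this in the difference was not tested. With Ighv2-2 included EV lines shared 95.4% to 99.7% within a mouse and 95.4% to 99.1% between mice. EV lines from separate mice thus held the same leading V segment. These shares are descriptions and were not tested.

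The D segments of EV lines differed between the mice. All D counts fell on the Ighd2 family except 7 counts, and which member carried them depended on mouse and condition. EV lines of mouse 1 had Ighd2-3 alone, with 30, 61 and 71 counts. EV lines of mouse 2 had Ighd2-7, with 86, 149 and 91 counts, and at most 1 count of any other D segment. The D segments of EV lines therefore overlapped by 97.8% to 100% within a mouse and by 0% to 0.667% between the mice.

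BCR-ABL1 lines of both mice had Ighd2-4, which was almost without counts in EV lines. It had 90, 103 and 102 counts in lines 1A, 1B and 1C, 116, 112 and 110 counts in lines 2A, 2B and 2C, and 1 count over all 6 EV lines. The pooled ratio of BCR-ABL1 to EV was 648 (exact 95% counting interval 116 to 25645) and the glmTreat FDR was 5.44e-07. Ighd2-4 reached 10 counts only in BCR-ABL1 lines. It entered the test through the group where it is high, so this FDR is no independent support. Ighd2-4 made up 63.4% to 79.2% of D counts in BCR-ABL1 lines of mouse 1 and 53.8% to 55.3% in those of mouse 2. In mouse 2 the rest was Ighd2-7, with 95, 96 and 88 counts, the segment that the EV lines of that mouse also held. In mouse 1 the rest was mainly Ighd2-8, with 33, 21 and 33 counts, followed by Ighd2-6 (6, 2 and 5 counts) and Ighd2-3 (10, 2 and 3 counts).

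Ighd2-8 had no count in any EV line or in BCR-ABL1 lines of mouse 2. Against the floor of 3 counts over the EV lines its level was higher by at least 29.7-fold in the BCR-ABL1 lines (exact lower 95% counting limit 23.6), but it was not called (glmTreat FDR = 0.0952). The 3 BCR-ABL1 lines of mouse 1 held all of its counts, so it entered the test through them alone. With mouse as replicate block, the FDR was 0.00368 and Ighd2-8 was called higher. Ighd2-3 had 0.427 ± 0.490 CPM in EV against 0.0496 ± 0.0639 CPM in BCR-ABL1 lines (SD, n = 6) and was not called (log2 fold change -3.07, SE 1.05, glmTreat FDR = 0.149). With the block its FDR was 0.00644 and it was called lower. Ighd2-3 reached 10 counts only in the 3 EV lines of mouse 1 and in BCR-ABL1 1A. It thus entered the test through the group where it is high. Ighd2-7 had similar levels in the conditions (1.20 ± 1.39 against 0.853 ± 0.938 CPM, log2 fold change -0.48, SE 1.80, glmTreat FDR = 1). The lines of mouse 2 held it in both conditions. The other 16 D segments had at most 6 counts in any line and 13 had none.

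**Figure D4:**
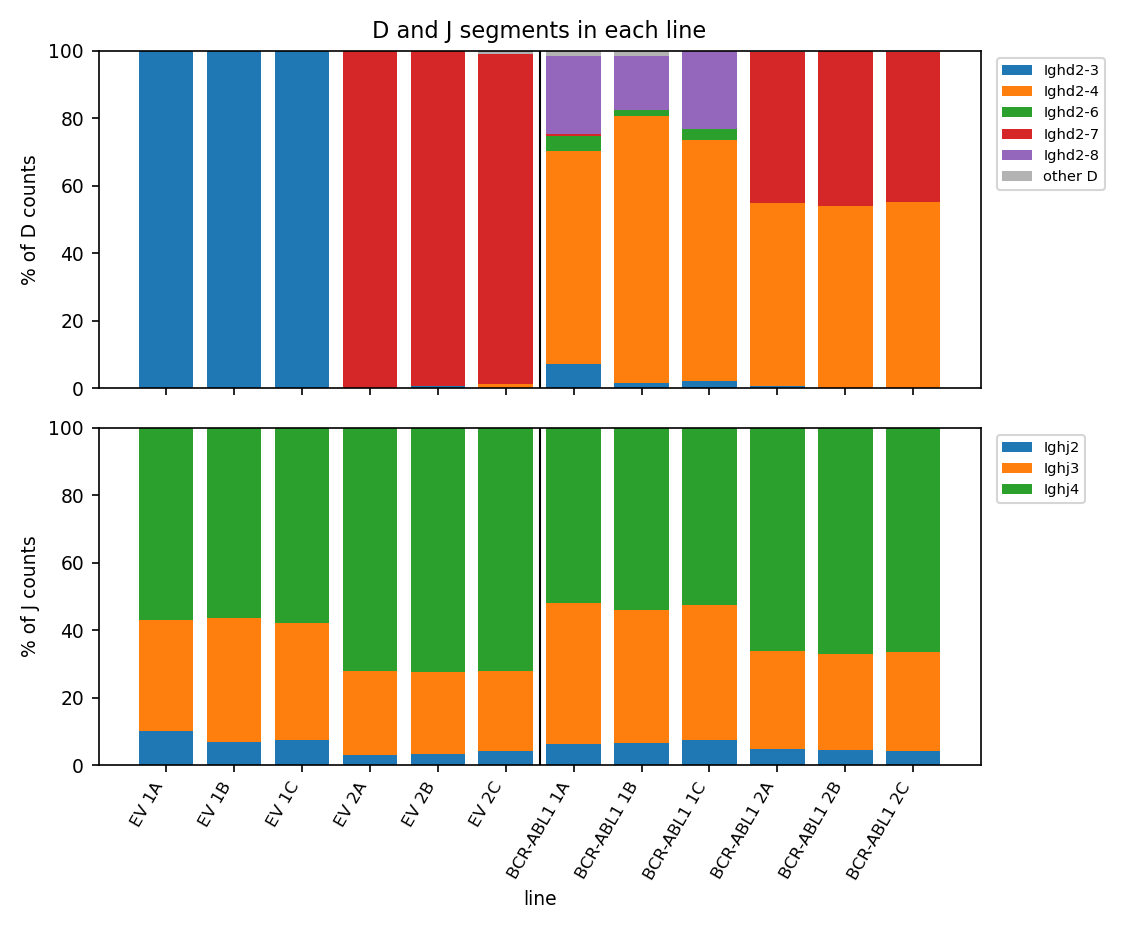
Share (%) of each D segment in the D counts (top) and of each J segment in the J counts (bottom) of each line; EV lines are to the left of the vertical line. Ighd2-3 fills the EV lines of mouse 1 and Ighd2-7 those of mouse 2, Ighd2-4 appears in the BCR-ABL1 lines, and Ighj4 is the largest part of the J counts everywhere.

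None of the 3 tested J segments was called between the conditions. Ighj4 had 18.8 ± 8.75 CPM in EV against 12.3 ± 2.33 CPM in BCR-ABL1 lines (SD, n = 6), with a log2 fold change of -0.62 (SE 0.26, glmTreat FDR = 0.628). Ighj3 had 8.10 ± 2.01 and 7.07 ± 1.28 CPM (log2 fold change -0.20, SE 0.18, FDR = 1 by the same test) and Ighj2 had 0.905 to 2.37 and 0.863 to 1.45 CPM (-0.41, SE 0.24, FDR = 1). The ranges of the conditions overlapped for all 3. Ighj1 had no count in any line.

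The shares of Ighj4 and Ighj3 in the J counts differed by mouse and, within each mouse, also by condition, in each case without overlap. Ighj4 made up 56.4% to 57.9% in EV lines of mouse 1 and 72.2% to 72.4% in those of mouse 2. In BCR-ABL1 lines it made up 51.9% to 54.1% for mouse 1 and 66.1% to 67.1% for mouse 2. Ighj3 made up 32.9% to 36.8% for mouse 1 against 23.7% to 24.9% for mouse 2 in EV lines. In BCR-ABL1 lines it made up 39.4% to 41.9% against 28.5% to 29.4%. The rest was Ighj2, with 6.82% to 10.2% for mouse 1 against 2.84% to 4.10% for mouse 2 in EV lines. In BCR-ABL1 lines Ighj2 made up 6.18% to 7.48% against 4.07% to 4.88%. These shares rest on 856 to 2381 J counts per line, and how far they follow the J segments that were joined was not tested. For the line with fewest J counts, BCR-ABL1 1C, the 95% Wilson interval of the Ighj4 share was 49.3% to 56.0%. In CPM, Ighj4 was higher in every line of mouse 2 than in every line of mouse 1 within each condition, but it was not called in EV (log2 fold change 0.94, SE 0.32, glmTreat FDR = 0.145) or in BCR-ABL1 lines (0.41, SE 0.13, FDR = 1).

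The mice were compared within each condition with the same test. In EV lines 1 segment was called higher in mouse 2, Ighd2-7, against 8.53% of tested genes, and 1 lower, Ighd2-3, against 2.32%. Ighd2-7 had no count in EV lines of mouse 1 and was at least 147-fold higher in those of mouse 2, against a floor of 3 counts over 3 lines (exact lower 95% counting limit 119, glmTreat FDR = 8.1e-06). Ighd2-3 had 162 counts over the EV lines of mouse 1 and 1 over those of mouse 2, a pooled ratio of 120 (exact 95% counting interval 21.2 to 4767, glmTreat FDR = 0.000248). Ighd2-7 reached 10 counts only in lines of mouse 2 and Ighd2-3 only in lines of mouse 1. Each thus entered the test through the mouse where it is high.

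In BCR-ABL1 lines 1 segment was called higher in mouse 2, Ighd2-7, against 1.77% of tested genes, and 2 lower, Ighd2-8 and Ighv1-41, against 1.49%. Ighd2-7 had 279 counts over the lines of mouse 2 and 1 over those of mouse 1, a ratio of 253 (45.1 to 10031, glmTreat FDR = 0.000183). Ighd2-8 was at least 32.0-fold higher in mouse 1 on the same floor (exact lower 95% counting limit 25.5, glmTreat FDR = 0.00987). Ighv1-41 had 30, 28 and 24 counts in mouse 1 and 7, 9 and 8 in mouse 2, a log2 difference of -1.90 (SE 0.10, glmTreat FDR = 0.0469), close to the threshold. Ighd2-8 and Ighv1-41 reached 10 counts only in BCR-ABL1 lines of mouse 1 and entered the test through them. Ighv2-2 was not called between the mice in EV (log2 fold change 0.20, SE 0.26, glmTreat FDR = 1) or in BCR-ABL1 lines (0.94, SE 1.17, FDR = 1), nor for the interaction (0.74, SE 1.20, quasi-likelihood FDR = 0.642).

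The heavy chain constant genes lie beyond the J segments. Ighm had 2235 to 3599 CPM in EV lines against 1231 to 1438 CPM in BCR-ABL1 lines, without overlap, and was called lower (log2 fold change -1.08, SE 0.10, glmTreat FDR = 0.00114). Ighd, the delta constant gene, which shares its primary transcript with Ighm, had 25.2 to 46.2 CPM and 19.0 to 23.5 CPM. It was lower in every BCR-ABL1 line but was not called beyond 1.5-fold (log2 fold change -0.52, SE 0.14, glmTreat FDR = 0.921). Exact permutation gave p = 0.00216 for each (adjusted over 3 genes, 0.00216). The other 6 constant genes lay under the count minimum. Ighg3 and Ighg1, which are used after class switching, had 11.0 and 3.53 CPM in EV 2C and at most 0.152 CPM in each other line.

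Of 16 genes for recombination and end joining all were tested, 1 was called higher and 2 lower, a small number to set beside the 6.49% and 7.58% of all tested genes, with a median log2 fold change of -0.21 against -0.04 over all tested genes. The recombinase genes Rag1 (58.2 ± 50.9 against 36.7 ± 9.06 CPM) and Rag2 (4.40 ± 1.93 against 5.36 ± 1.97 CPM, SD, n = 6) were not called. Dntt, the terminal transferase that adds bases at the joints, was called higher, with 0.101 to 18.5 CPM in EV against 31.5 to 180 CPM in BCR-ABL1 lines (log2 fold change 4.29, SE 1.24, glmTreat FDR = 0.0360). The end joining genes Lig4 (log2 fold change -1.49, SE 0.25, glmTreat FDR = 0.0032) and Dclre1c (-1.08, SE 0.21, FDR = 0.0203), which encode the ligase and the Artemis nuclease, were called lower.

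Of 14 genes for locus opening and contraction, 2 were called lower and none higher by glmTreat, again beside 7.58% and 6.49% of all tested genes (median log2 fold change -0.05). They were Wapl, the cohesin release factor (-1.36, SE 0.16, FDR = 0.000739), and Il7r, the receptor for IL7 (-1.06, SE 0.13, FDR = 0.00299). None of 6 genes for the partners of the heavy chain in the pre-B receptor was called (median 0.08), with Vpreb1, a surrogate light chain, at a log2 fold change of 0.35 (SE 0.36, glmTreat FDR = 1). Adam6b, which lies between V and D, was not called (1.13, SE 0.78, glmTreat FDR = 0.692).

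Markers of other cells moved with the conditions in part. The 9 T and NK cell genes summed to 13.03 to 43.48 CPM in EV against 1.45 to 5.65 CPM in BCR-ABL1 lines, of which Trac alone had 10.0 to 41.3 and 0.212 to 1.34 CPM. Of these 9 genes 4 were tested, and Trac and Cd3d were called lower. Cd3d, a defining T cell gene, had 0.235 to 0.637 CPM in EV against 0.0303 to 0.115 CPM in BCR-ABL1 lines, and Cd3e, another, had at most 0.121 CPM in any line. Klrb1c, an NK cell gene, had 0.0289 to 1.08 CPM in EV against 0.352 to 3.70 CPM in BCR-ABL1 lines and was not called. At most 3 counts in every line were held by 1 of the 9 genes in EV and by 5 in BCR-ABL1 lines. The 9 myeloid genes summed to 0.200 to 1.18 CPM in EV against 0.435 to 0.861 CPM in BCR-ABL1 lines, and 1 of the 3 tested was called higher. The 6 erythroid genes summed to 1.27 to 6.83 and 5.97 to 12.6 CPM, with Hba-a1 and Hba-a2 at 0 in every line. Of the 2 erythroid genes tested, 1 was called higher. The 6 stromal genes summed to 0.0362 to 1.70 and 0.0192 to 0.202 CPM, and none was tested. Of 8 plasma cell and mature B genes 7 were tested, and 2 were called higher and 2 lower. Jchain had 0.247 to 2.53 CPM in EV against 8.38 to 10.0 CPM in BCR-ABL1 lines. Prdm1, of the same list, went the other way, with 3.82 to 30.6 CPM in EV against 0.824 to 1.24 CPM in BCR-ABL1 lines. Over all tested genes 6.49% were called higher and 7.58% lower, the shares to set beside the counts in each of these lists. Among the 9 B lineage genes 1 was called lower, Cd72, with a log2 fold change of -2.53 (SE 0.20, glmTreat FDR = 7.99e-06). The part of these genes in the V segment levels was not tested.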

How the data were processed

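RNA of 6 EV and 6 BCR-ABL1 lines was sequenced from stranded total RNA libraries. The authors deposited the counts of reads per gene as whole numbers, not normalized and not pooled. The submitters' processing notes name Trimmomatic 0.36, TopHat2 2.1.1, Bowtie2 2.3.2, featureCounts 1.5.3 and build GRCm38. Settings for strand and for reads with several matches are not given in the sources used here. Reads across V-D-J joints have no contiguous match in the genome, and how they were counted is not given in the sources used here.

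Groups came from the genotype and cell line labels. Symbols, positions and sequences came from GENCODE M21 (GRCm38), which held 51633 of 51826 identifiers. Genes with at least 10 counts in at least 3 lines (16407) were scaled by TMM and tested with edgeR 4.0.16 in R 4.3.3, by glmTreat on the quasi-likelihood fit against 1.5-fold, or by glmQLFTest for the interaction. The threshold was an adjusted p of 0.05 over all tested genes. Standard errors are from the spread of log2 CPM (prior count 2) between lines. Fitted fold changes of segments with 3 or fewer counts in a group depend on the prior count and are not given. Pooled ratios carry exact 95% intervals, shares Wilson intervals. Both, like the floor of 3 counts, hold for counting error alone, because reads of one molecule are not told apart here.

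The members and gene lists were chosen with earlier results of these data known. Named are Ighv2-2, the 2 leading V segments of each line, tested D and J segments, the 5 called V segments with the largest rise and fall, the tested V segments nearest to and farthest from D, constant genes, Rag1, Rag2 and Dntt. Other genes named were picked from the fixed lists after their values were seen, and Ighv2-4, Ighv5-4, Ighv14-1, Ighd2-5, Ighd2-6 and Ighj1 for their sequence or place. Alternatives were RLE size factors, TMM without 395 immunoglobulin genes, other filters, the likelihood ratio fit, DESeq2 1.42.0, a test against no change, robust dispersion, blocks, each mouse alone and leaving out each line. Lines with the same first digit come from the same mouse by the labels, and deviations from the condition means correlated at 0.0642 to 0.219 for EV and BCR-ABL1 lines of one mouse and at -0.193 to -0.0702 for lines of different mice. Fits were tested on simulated counts. Replicate lines differed beyond sampling noise by chi-square tests, and none was merged.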

Additional observations from a re-analysis of the deposited data

Results flagged for a closer look

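Of 52 sets of 6 lines examined for a line far from the others, 7 held one, where chance alone flags about 1 in 20. EV 2B was that line in 6 of the 7. It had 11.0 CPM of Ighv5-6, 0.220 CPM of Ighv1-47, 1.60 CPM of Ighv8-4, 16.2 CPM of V segments without Ighv2-2, 46.2 CPM of the constant gene Ighd and an effective number of V segments of 1.11, each the highest of the EV lines. The sum, the effective number and Ighv5-6 are not independent, since Ighv5-6 enters all of them. BCR-ABL1 2A had the lowest level of Ighv1-72 among the BCR-ABL1 lines, 0.0383 CPM, which stands for 2 counts.

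The difference between conditions in Ighv14-2 was unlike in the mice, with an interaction of -2.67 on the log2 scale (quasi-likelihood FDR = 0.00717). All 3 BCR-ABL1 lines of mouse 1 were above all 3 of mouse 2, and all 3 EV lines of mouse 1 were below all 3 of mouse 2. EV 1B and EV 2C had 8 counts each, so their order rests on the library scaling alone.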

How the results depend on the processing

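Of the 17 segments called higher in BCR-ABL1 lines, filterByExpr left 11, as the other 6 were no longer tested, and the lines of mouse 2 alone left 7. With no filter 22 were called higher, adding Ighv1-12, Ighv1-50, Ighv1-58, Ighv1-62-3 and Ighv1-63. Without BCR-ABL1 1A, 1B or 1C, Ighv1-41 fell under the count minimum and was not tested, and 16 remained. The 1 segment called lower became 2 with no filter (adding Ighv5-6), with the lines of mouse 1 alone and with mouse as replicate block (both adding Ighd2-3). With line pair as replicate block, 16 were called higher and 1 lower, without Ighv1-74, and Ighd2-8 was called with mouse as replicate block, the likelihood ratio fit and the test against no change. The blocks changed no other call. In EV lines, 2 segments were called higher in mouse 2 with RLE size factors and 3 in the test against no change. Leaving out one line gave 1 to 4, the 4 without EV 2C. In BCR-ABL1 lines 1 segment instead of 2 was called lower in mouse 2 with robust dispersion, and leaving out one line gave 0 to 1, the 0 without any line of mouse 1, where Ighd2-8 and Ighv1-41 fell under the count minimum. The count called higher was 2 without BCR-ABL1 1A, adding Ighv2-2. For the interaction 4 segments were called lower by the likelihood ratio test. Leaving out one line gave 1 to 5 lower, with 3 without EV 2A, 2 without EV 2B and 5 without EV 2C, and 0 to 1 higher, the 1 being Ighv2-2 without BCR-ABL1 1A. Single segments that were not called changed sign: Ighj3 to 0.0462 in mouse 1 alone, Ighv8-4 to -0.71 in mouse 2 alone and, leaving out one line, to between -0.117 and 0.553, and Ighd2-7 to between -0.843 and 0.0429. The cause of these changes was not tested where none is named. The summed level in EV lines, 250.3 CPM, was 35.2 CPM without Ighv2-2, the effective number there 9.53 and the share of the leading segment 32.2%. By the exponential of the Shannon entropy the effective number was 1.16 in EV and 21.3 in BCR-ABL1 lines. Segments with few counts limit the precision: 3 counts in a single line are 0.0433 to 0.0910 CPM, whereas the floor of the pooled ratios is 3 counts over all lines of a group.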
